A study of Mus musculus with 28 samples.

Results

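The transcripts described here encode the 70-kDa heat shock proteins (HSP70) and their partners in mouse ear skin, namely the J-domain cochaperones, the small heat shock proteins (small HSP), the BAG cochaperones, the mitochondrial chaperonin and the heat shock factors HSF1 and HSF2. Members were the protein-coding genes whose symbol is Dnaja, Dnajb, Dnajc, Hspa, Hspb or Bag with a number, together with Hsph1, Hspd1, Hspe1, Hsf1 and Hsf2. This rule gave 76 of the 55414 genes in the count table. They comprised 14 HSP70 and HSP110 genes, 4 class A, 13 class B and 28 class C J-domain genes, 7 small HSP genes, 6 BAG genes, 2 chaperonin genes and 2 heat shock factor genes. The rule uses gene symbols and no expression value, but it was set with earlier results of these data known.

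RNA of ear biopsies from 28 wild-type female C57BL/6J mice, 6 to 8 weeks old, was sequenced, with 1 library per mouse. The groups were TPA+RGRN-305 (n = 10), TPA (n = 10), RGRN-305 (n = 4) and vehicle (n = 4). RGRN-305, an inhibitor of HSP90, was applied to the ear at 1 mg, or its acetone solvent was applied alone, 100 min before TPA at 2.5 µg per ear or a further application of acetone. TPA, a phorbol ester, switches on protein kinase C and inflames the skin within hours, and all ears were sampled 4 hours after the TPA or acetone application. Each mouse was wild type, so that the treatments were the only labelled difference between groups. The study ran 2 independent mouse experiments, and no source used here says whether the sequenced mice came from 1 or both. Since no library is tied to an experiment, the part of the experiment in each difference was not tested.

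Chaperones of the HSP70 family bind unfolded stretches of other proteins and release them in a cycle of ATP binding and hydrolysis. J-domain proteins deliver clients to HSP70 and speed up hydrolysis, HSP110 and BAG proteins help nucleotide leave it, and small HSPs hold unfolding proteins without using ATP. HSP90 takes over part of the clients of HSP70. In resting cells HSF1 is held inactive in complexes that include HSP70 and HSP90, and when proteins unfold it binds heat shock elements, which are repeats of the unit GAA and its reverse complement TTC, upstream of many of these genes. A rise of inducible HSP70 is the widely used sign that an HSP90 inhibitor has acted on cells.

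The promoter stretches below are shown because they carry such paired units in genes on which the results turn, some that changed with TPA and others that did not pass the test. Windows of 250 bases before to 50 bases after the annotated start were taken from RefSeq (GRCm38.p6) for the 62 members with an entry, and their positions in GRCm39 were found by exact sequence match. The facing pair GAANNTTC and the opposed pair TTCNNGAA were searched, and each is its own reverse complement, so that both strands were covered. Capitals mark the paired units, and every stretch printed lies upstream of an annotated RefSeq start and reads 5′ to 3′ along the gene's strand. By the GENCODE gene spans, the stretches of Dnaja1, Dnaja4, Dnajb4, Hsph1 and Hspd1 lie inside the gene.
Hspa1a and Hspa1b: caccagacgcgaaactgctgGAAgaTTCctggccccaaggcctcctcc
Dnaja1: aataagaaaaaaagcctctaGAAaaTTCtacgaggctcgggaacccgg
Dnajb4: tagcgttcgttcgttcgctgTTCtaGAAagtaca
Hsph1: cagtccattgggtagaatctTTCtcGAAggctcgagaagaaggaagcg
Hspd1: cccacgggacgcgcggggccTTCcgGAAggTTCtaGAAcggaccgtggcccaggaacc
Hspb1: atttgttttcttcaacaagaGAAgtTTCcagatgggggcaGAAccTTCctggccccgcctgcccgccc
Dnaja4: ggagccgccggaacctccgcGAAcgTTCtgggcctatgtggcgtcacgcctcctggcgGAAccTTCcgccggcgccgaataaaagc
In GRCm39 these lie at chr17:35191209-35191256 (Hspa1a, minus strand), chr17:35178291-35178338 (Hspa1b, minus strand), chr4:40722324-40722371 (Dnaja1, plus strand), chr3:151899483-151899516 (Dnajb4, minus strand), chr5:149559807-149559854 (Hsph1, minus strand), chr1:55127198-55127255 (Hspd1, minus strand), chr5:135916636-135916703 (Hspb1, plus strand) and chr9:54606733-54606818 (Dnaja4, plus strand). The stretches of Hspa1a and Hspa1b are identical base for base, with the pair at position -104 from the start. The pair of Dnaja1 was at -124 and that of Dnajb4 at -14. The Hspd1 stretch holds a chain of 3 overlapping pairs and also lies upstream of Hspe1, which is transcribed in the opposite direction.

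Either pair was found in 17 of the 62 members with a window, against 16.97% of 27025 genes with a window of the same length. The facing pair was in 15 members, against 9.04% of genes, and the opposed pair in 6 members, against 9.6% of genes. A run of 3 units in alternating orientation was in 4 members (Dnajb6, Hspd1, Hspe1 and Hsph1), against 0.66% of genes. In Hsph1 the run lay after the start, with its pairs at 15 and 20 or at 36 and 41, depending on the start used. Hspd1 and Hspe1 share the same stretch. A match is a match of letters only, and it was not tested whether any factor binds there.

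Total counts were 16751780 to 24716640 per library, and 18991 genes passed a filter on low counts and were tested, among them 70 of the 76 members. Dnajb7, Dnajb8, Dnajb13, Dnajc5b, Dnajc5g and Hspb9 did not pass, and of these Dnajb13 had the highest mean, 2.01 normalized counts. Dnajb8 and Dnajc5g had 0 counts in every library, which allows up to 3 counts over all mice. Keratinocyte markers (8 of 8 detected) summed to 29655 to 41280 CPM, which are counts scaled to a fixed library size, and skeletal muscle markers (10 of 10 detected) to 5433 to 11028 CPM. Neutrophil markers, of which 7 of 8 were tested, summed to 87.2 to 139 CPM with TPA+RGRN-305, 348 to 465 CPM with TPA, 85.4 to 109 CPM with RGRN-305 and 80.1 to 98.2 CPM with vehicle. Il1r2 made up most of the sum in every group but TPA. Its total counts were 18075 with TPA+RGRN-305, 23386 with TPA, 6885 with RGRN-305 and 6512 with vehicle, over 10, 10, 4 and 4 mice. Those of S100a8 were 691, 7829, 53 and 73 in the same order. Ly6g, the defining marker among them, was not tested. It had 6 counts over the TPA+RGRN-305 libraries, 67 over the TPA libraries and 0 in the RGRN-305 and vehicle libraries. One TPA+RGRN-305 library (mouse 6) had 0.588 CPM of Xist, against 370 to 802 CPM in the 27 others, at odds with its label as a female mouse, and 7 libraries (4 TPA+RGRN-305, 1 TPA and 2 RGRN-305) carried more hair follicle transcripts than the others. Hair follicle markers summed to 7.04 to 208 CPM with TPA+RGRN-305, 11.9 to 96.9 CPM with TPA, 6.67 to 66.7 CPM with RGRN-305 and 7.03 to 9.66 CPM with vehicle. Results are given with all 28 libraries, and the counts of calls without these libraries are given with the limits. In such bulk samples, fewer cells of a type and less RNA per cell cannot be told apart.

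Levels in the text are normalized counts, which are counts scaled by TMM library factors to the mean library, and they compare a gene between mice. Between genes only the level per length (RPKM, counts scaled to gene length and library size) can be compared. By mean RPKM over the 28 mice, Hspb1 (267) was the highest member, followed by Bag1 (149), Hspa1b (144), Hspb8 (130), Hspa8 (96.6) and Hspa5 (91.1). Hspb1 was highest in each of the 4 groups, and the order of the others differed between groups, with Hspa8 at 140 RPKM and Hspa1b at 124 RPKM in TPA mice, and Hspa8 at 54.9 RPKM and Hspa1b at 125 RPKM in vehicle mice. Reads that fit both Hspa1b and its near-identical neighbour Hspa1a (40 RPKM in TPA mice) are not counted. The level of either gene may therefore be too low, and the rank of Hspa1b against Hspa8 is uncertain.

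The first comparison asked what TPA did to these chaperones. TPA raised the cytosolic HSP70 Hspa8, its J-domain partners Dnajb1, Dnaja1 and Dnajb4, the cochaperones Bag3 and Bag5 and the endoplasmic reticulum HSP70 Hspa5 more than 2-fold, and it lowered Hsf2 and the divergent HSP70 gene Hspa12b more than 2-fold. The inducible HSP70 genes Hspa1a and Hspa1b did not pass the test. Of the 70 members tested, 32 were higher with TPA (45.7%) and 18 were lower (25.7%) at an adjusted p under 0.05 by edgeR's quasi-likelihood test with Benjamini-Hochberg adjustment. Among all genes tested, 31.6% were higher and 34.4% were lower. With the study's further limits of more than 2-fold and a mean normalized count above 50, 8 members were higher (11.4%) and 3 were lower (4.29%), against 7.61% and 5.34% of all genes. The median log2 fold change was 0.12 over the members and -0.03 over all genes tested. When libraries were scaled by their totals alone, 24 members were higher and 34 lower, and the log2 fold changes of all genes moved by a median of -0.29, so that each change below is relative to the TMM scale. The share of all genes called with library totals alone was not counted in any comparison. Member counts on that scale are therefore given without a background.

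Dnajb1, a class B J-domain protein that activates cytosolic HSP70, changed most among the members that rose. It had 7197, 7791 and 8894 normalized counts (lowest, median and highest) in the 10 TPA mice, against 1795, 1852, 2107 and 1813 in the 4 vehicle mice. Every TPA mouse was above every vehicle mouse. The means were 7949 ± 661 with TPA and 1892 ± 145 with vehicle (SD, n = 10 and n = 4), a log2 fold change of 2.07 ± 0.10 (SE, edgeR adjusted p = 1.6e-17).

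Bag3, which couples HSP70 to small HSPs in the clearance of aggregates, had 3445, 3757 and 4094 normalized counts in TPA mice, against 1362, 1453, 1183 and 1387 in vehicle mice. The groups did not overlap, and the log2 fold change was 1.47 ± 0.07 (SE, edgeR adjusted p = 4.6e-18). Bag5, another BAG cochaperone, averaged 1582 ± 61.7 with TPA and 773 ± 74.3 with vehicle (SD), a log2 fold change of 1.03. Of the 6 BAG genes, 3 rose, 1 fell and 2 did not pass the test (2 higher and 3 lower with library totals alone), and the gene that fell was Bag4 (log2 fold change -0.57).

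Hspa8, the constitutive cytosolic HSP70, had 9923, 12029 and 13417 normalized counts in TPA mice, against 4349, 4818, 5043 and 4644 in vehicle mice. The groups were far apart, with a log2 fold change of 1.35 ± 0.09 (SE, edgeR adjusted p = 2.1e-14). The HSP110 genes Hspa4 and Hsph1, whose products release nucleotide from HSP70, rose by 0.97 and 0.92 on the log2 scale, and in both genes every TPA mouse lay above every vehicle mouse. Hsph1 averaged 824 ± 70.2 with TPA and 436 ± 57.1 with vehicle (SD). Among 14 HSP70 and HSP110 genes, 7 rose, 3 fell and 4 did not pass, with a median log2 fold change of 0.27. With library totals alone, 7 rose and 6 fell and the median was -0.02.

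Hspa1a and Hspa1b, neighbouring stress-inducible HSP70 genes on chromosome 17 (chr17:35188166-35191132 and chr17:35175412-35178214, GRCm39), stood apart from Hspa8. Hspa1b had 6306, 7012 and 7351 normalized counts in TPA mice, against 6892, 7490, 7454 and 6131 in vehicle mice, and the TPA mice lay wholly within the vehicle range. Hspa1a had 2119, 2349 and 2681 in TPA mice, against 2184, 2577, 2605 and 1990 in vehicle mice. The log2 fold changes were 0.02 for Hspa1a (95% interval -0.14 to 0.17, edgeR adjusted p = 0.866) and -0.01 for Hspa1b (95% interval -0.16 to 0.13, edgeR adjusted p = 0.899). With library totals alone both were lower with TPA, by log2 fold changes of -0.27 (edgeR adjusted p = 0.00182) and -0.30 (edgeR adjusted p = 0.00069). The coding sequences of these 2 genes are nearly identical and reads that fit both are not counted, so the split between them is uncertain, and their summed counts gave a log2 fold change of -0.00.

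**Figure D1:**
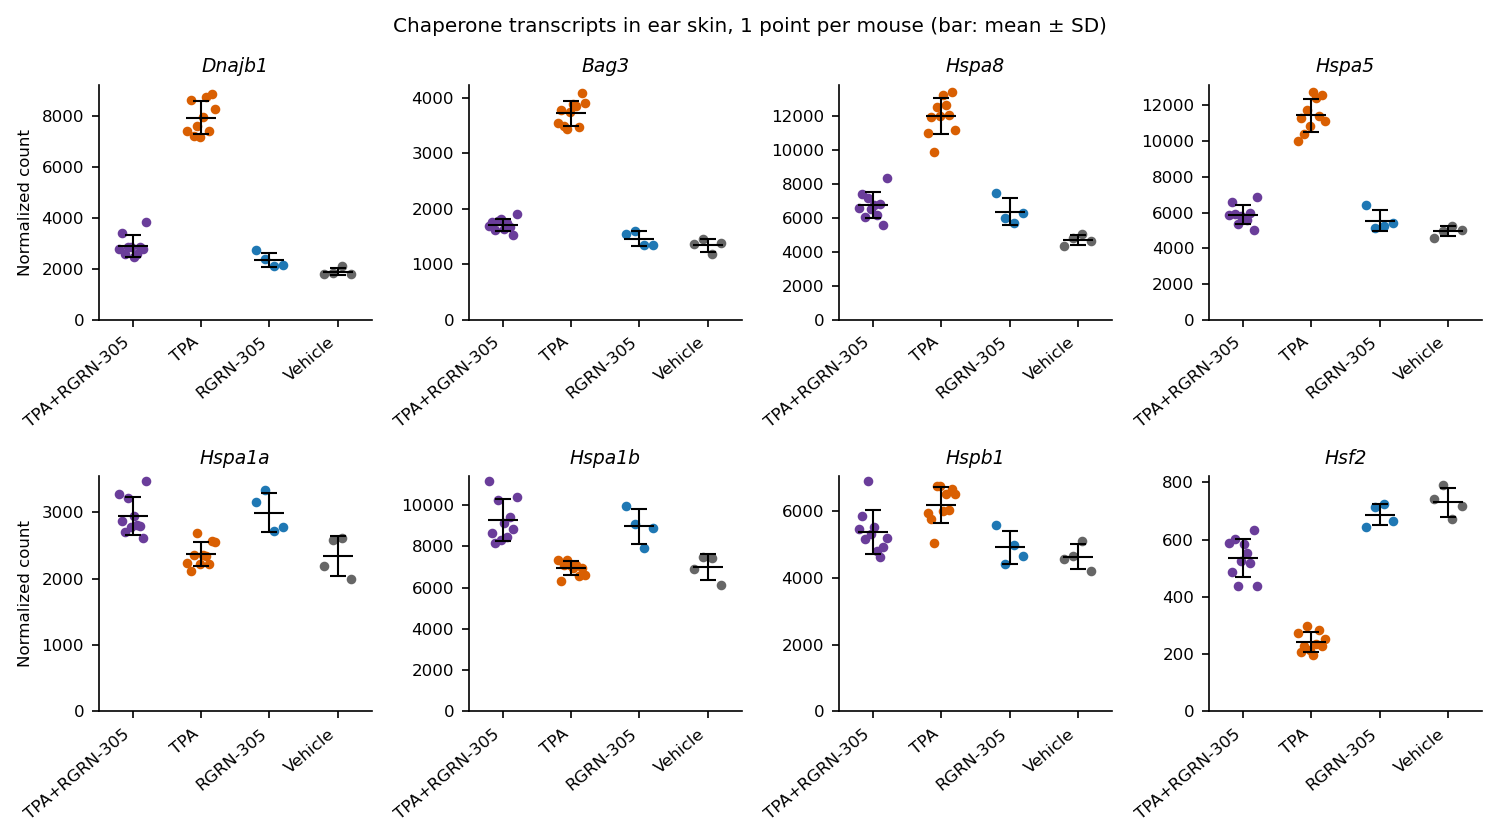
Normalized count (y axis, from 0) of 8 members in every mouse, by treatment group (x axis), with bars for the mean and SD. TPA mice lay above all vehicle mice for Dnajb1, Bag3, Hspa8 and Hspa5 and below them for Hsf2, while for Hspa1b the TPA+RGRN-305 mice (8174 to 11158) lay above all TPA mice (6306 to 7351).

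Class A and B J-domain proteins act on HSP70 as general cochaperones. Of the 4 class A genes, 2 rose and 2 did not pass the test (2 higher and 2 lower with library totals alone). Dnaja1 had 1062, 1199 and 1323 normalized counts in TPA mice, against 505, 511, 540 and 487 in vehicle mice (log2 fold change 1.22 ± 0.09 SE, edgeR adjusted p = 9.7e-14). Dnaja2 rose by 0.79, Dnajb4 by 1.06, Dnajb5 by 0.71 and Dnajb6 by 0.56 on the log2 scale. Each of these 5 genes had no overlap between TPA and vehicle mice. Dnaja4, a class A gene whose promoter holds the paired units printed above, averaged 1671 ± 62.7 with TPA and 1666 ± 128 with vehicle (SD), and its log2 fold change was 0.00 (95% interval -0.11 to 0.12), or -0.28 and past the test with library totals alone. Dnaja3, a mitochondrial class A protein, had 0.07, or -0.22 and past the test with library totals alone. Class B gave 7 higher and 2 lower of 10 genes (6 and 3 with library totals alone), and the Dnajb3 transcript was 1 of those lower, with 43.6 ± 9.39 in TPA mice and 68.2 ± 7.02 in vehicle mice (SD).

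Class C J-domain genes, which share little beyond the J domain and serve many sites in the cell, divided in both directions, with 8 higher and 11 lower of 26 and a median log2 fold change of -0.16. With library totals alone, 4 were higher and 18 lower. Dnajc21, which serves the assembly of the large ribosomal subunit, and Dnajc2, which sits on the ribosome at the exit of new chains, rose by 1.02 and 0.92 on the log2 scale. Dnajc27, a J-domain protein with a small GTPase domain, had 347 ± 23.1 normalized counts with TPA and 177 ± 7.17 with vehicle (SD). Dnajc5, the cysteine string protein of secretory vesicles, rose by 0.62. Dnajc28 fell by 1.19 on the log2 scale, with 34.2 ± 10 in TPA mice and 78.4 ± 15 in vehicle mice (SD), and Dnajc6, the auxilin of clathrin uncoating, fell by 0.98 with overlapping groups.

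In the endoplasmic reticulum, Hspa5 (BiP), the HSP70 of that compartment, had 10014, 11331 and 12748 normalized counts in TPA mice, against 4575, 4950, 5268 and 5012 in vehicle mice. The groups did not overlap (log2 fold change 1.21 ± 0.08 SE, edgeR adjusted p = 1.1e-14). Of 10 members assigned to the endoplasmic reticulum, 7 rose and 1 fell, with a median log2 fold change of 0.34 (4 higher and 3 lower, median 0.05, with library totals alone). These counts depend on the assignment, which was made gene by gene and left out Dnajc14, Dnajc16 and Dnajc18. For each of these, all 10 TPA mice lay below every vehicle mouse. Among the J-domain partners of BiP, Dnajb9, Dnajb11, Dnajc3 and Dnajc1 rose by 0.50, 0.43, 0.31 and 0.37 on the log2 scale, with no call for Dnajc3 (0.02) and Dnajc1 (0.08) with library totals alone, and Hspa13, a microsomal HSP70, rose by 0.71. Dnajc10, a BiP partner that also reduces disulfide bonds, averaged 1192 ± 65.5 with TPA and 1269 ± 33.5 with vehicle (SD), a log2 fold change of -0.09 (edgeR adjusted p = 0.192), or -0.38 and past the test with library totals alone (edgeR adjusted p = 3.7e-06).

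In mitochondria, the HSP70 gene Hspa9 averaged 8243 ± 408 with TPA and 5409 ± 190 with vehicle (SD), a log2 fold change of 0.61, and of 9 members assigned to this compartment 3 rose and 2 fell (2 and 6 with library totals alone). Hspd1 and Hspe1 encode the HSP60 and HSP10 subunits of one folding chamber and lie side by side on chromosome 1. Hspd1 rose by 0.68 ± 0.08 (SE, edgeR adjusted p = 4.1e-09) and Hspe1 by 0.37 ± 0.10 (SE, edgeR adjusted p = 0.00178) on the log2 scale, and Hspe1 lost its call with library totals alone (log2 fold change 0.08).

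Among the 6 small HSP genes tested, Hspb8 and Hspb1 rose and 4 did not pass the test. Hspb8, the partner of Bag3, averaged 6291 ± 1023 with TPA and 4024 ± 510 with vehicle (SD, log2 fold change 0.64 ± 0.13 SE, edgeR adjusted p = 3.5e-05), and 9 of 10 TPA mice were above every vehicle mouse. Hspb1 (HSP25), which protects actin filaments and holds unfolding proteins, had 5047, 6250 and 6739 normalized counts in TPA mice, against 4562, 4657, 5106 and 4187 in vehicle mice. Its log2 fold change was 0.42 ± 0.09 (SE, edgeR adjusted p = 6.8e-05), and it lost its call with library totals alone (0.13, edgeR adjusted p = 0.142). The copy Hsp25-ps1 took about as many counts as Hspb1 itself, with 6406 ± 476 in TPA mice and 5100 ± 169 in vehicle mice (SD), and the summed pair rose by 0.37.

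The muscle small HSP genes Hspb6 and Hspb7 had log2 fold changes of 0.18 and 0.18 (edgeR adjusted p = 0.222 and 0.153). The TPA mouse with the highest muscle marker sum of its group (10918 CPM) also had the highest Hspb6 count of all mice (4667). A muscle covariate, chosen after seeing the data, was the log2 marker sum scaled by library totals alone, whereas the CPM above are on the TMM scale. With it both genes passed the test with TPA, with log2 fold changes of 0.24 (edgeR adjusted p = 0.00854) for Hspb6 and 0.24 (edgeR adjusted p = 0.0124) for Hspb7. TMM factors averaged 0.889 with TPA and 1.08 with vehicle, so the covariate also differed between these groups by its scaling. The parts of muscle content and of scaling in these calls were not tested. Hspb8 had 0.65 under the covariate.

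**Figure D2:**
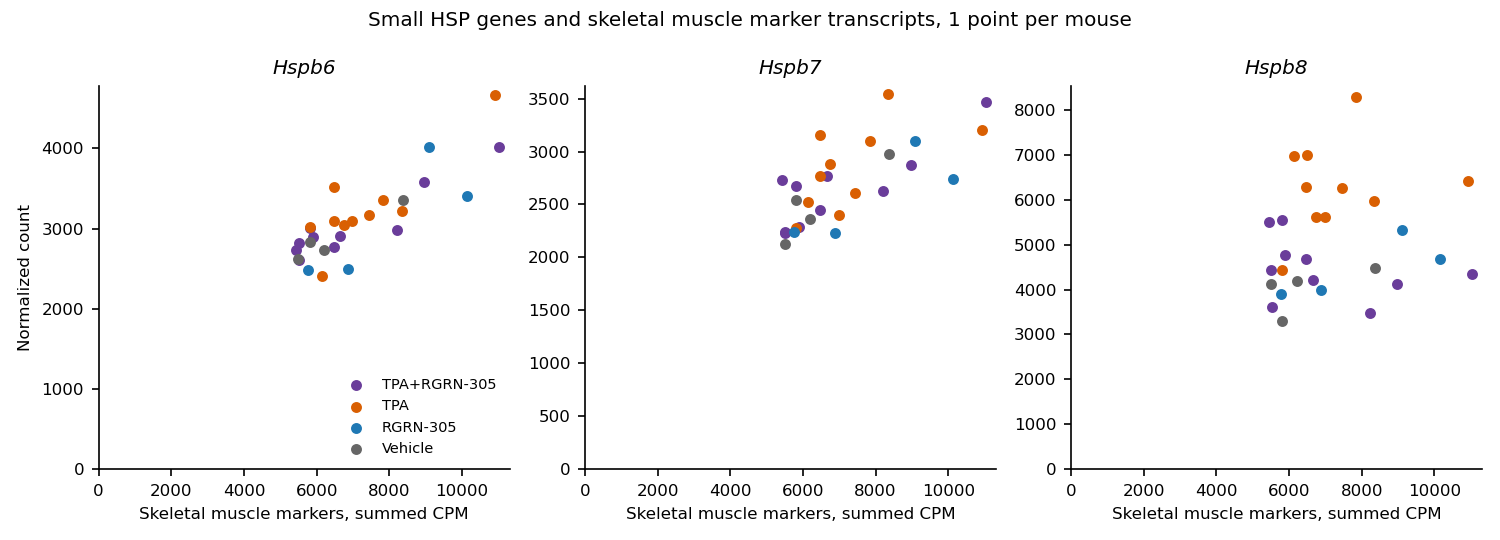
Normalized count (y axis) of Hspb6, Hspb7 and Hspb8 against the summed CPM of 10 skeletal muscle markers (x axis), 1 point per mouse, with colours for the 4 groups. The mice with the highest marker sums (11028 CPM in a TPA+RGRN-305 mouse and 10918 CPM in a TPA mouse) had 4019 and 4667 counts of Hspb6, while Hspb8 was highest (8289) in a TPA mouse with 7836 CPM.

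The heat shock factors went opposite ways. Hsf2, which pairs with HSF1 on heat shock elements, had 197, 232 and 299 normalized counts in TPA mice, against 744, 793, 672 and 716 in vehicle mice, a log2 fold change of -1.59 ± 0.09 (SE, edgeR adjusted p = 6.5e-16). No TPA mouse reached the lowest vehicle mouse. Hsf1 had 894, 994 and 1081 in TPA mice, against 665, 739, 663 and 672 in vehicle mice, a log2 fold change of 0.53 ± 0.07 (SE, edgeR adjusted p = 2.4e-08). Hspa12b, a divergent HSP70 known from endothelial cells, fell by 1.02, with 141 ± 23.4 in TPA mice and 287 ± 32.1 in vehicle mice (SD).

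**Figure D3:**
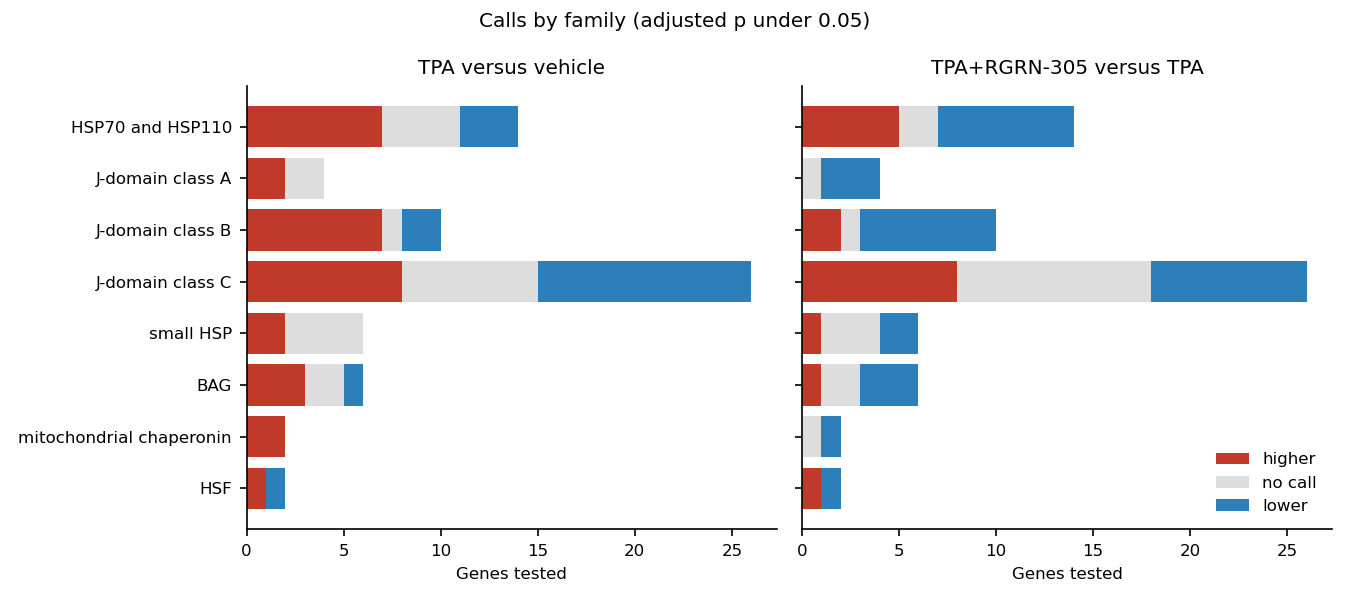
Number of genes tested (x axis) in each family that were higher, lower or without a call at an adjusted p under 0.05, for TPA versus vehicle (left) and TPA+RGRN-305 versus TPA (right). Class B J-domain genes gave 7 higher and 2 lower of 10 in the left panel and 2 higher and 7 lower in the right panel, and the 2 comparisons share the TPA mice.

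The second comparison asked how RGRN-305 before TPA changed the same transcripts, and it shares the TPA mice with the first, so that its values are given side by side and not as a separate support. Dnajb1, Bag3, Hspa5, Dnajb4 and Hspa8 were lower with TPA+RGRN-305 than with TPA alone, Hsf2 and Hspa12b were higher, and Hspa1a and Hspa1b were also higher. Of 70 members, 32 were lower and 18 were higher (edgeR adjusted p under 0.05), against 32.6% lower and 33% higher among all genes. More than 2-fold and above a mean of 50, Bag3 and Dnajb1 were lower and Hsf2 and Hspa12b higher, against 4.61% lower and 2.69% higher among all genes. With library totals alone, which moved all genes by a median of 0.26, the counts were 21 lower and 37 higher, with no share over all genes counted on that scale. By family, lower and higher calls numbered 7 and 5 for HSP70 and HSP110, 3 and 0 for class A, 7 and 2 for class B, 8 and 8 for class C, 2 and 1 for small HSP and 3 and 1 for BAG genes. Scaled by library totals alone, they numbered 6 and 7 for HSP70 and HSP110, 2 and 2 for class A, 5 and 3 for class B, 4 and 17 for class C, 1 and 2 for small HSP and 2 and 4 for BAG genes.

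Dnajb1 had 2471, 2828 and 3851 normalized counts in the TPA+RGRN-305 mice, against 7197, 7791 and 8894 in TPA mice. The highest mouse with the inhibitor was below the lowest without it, and the log2 fold change was -1.45 ± 0.07 (SE, edgeR adjusted p = 5.3e-18). Bag3 had 1528, 1724 and 1907 in TPA+RGRN-305 mice, against 3445, 3757 and 4094 in TPA mice (log2 fold change -1.12 ± 0.05 SE, edgeR adjusted p = 3.9e-19). Hspa5 averaged 5879 ± 540 in TPA+RGRN-305 mice and 11448 ± 922 in TPA mice (SD), a log2 fold change of -0.96 ± 0.06 (SE). All 3 genes had no overlap between these groups.

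Hspa8 had 5620, 6689 and 8371 normalized counts in TPA+RGRN-305 mice, against 9923, 12029 and 13417 in TPA mice (log2 fold change -0.83 ± 0.06 SE, edgeR adjusted p = 5e-13). Its partners followed the same direction, with log2 fold changes of -0.87 for Dnajb4, -0.68 for Dnaja2, -0.67 for Dnaja1, -0.67 for Hspa4 and -0.48 for Hsph1. Dnajc21 and Dnajc2 had -0.64 and -0.62, Bag5 had -0.57 and Hspa9 -0.52. Hspd1 had -0.41 and Hspb8 -0.49, and the groups overlapped for both of these genes and for Hsph1. The copy of Dnajb6 on chromosome 12, Dnajb6-ps, and Dnajb6 itself gave a summed value of -0.52.

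Hspa1b had 8174, 8971 and 11158 normalized counts in TPA+RGRN-305 mice, against 6306, 7012 and 7351 in TPA mice. Every TPA+RGRN-305 mouse was above every TPA mouse, and the log2 fold change was 0.42 ± 0.06 (SE, edgeR adjusted p = 8.2e-08). Hspa1a had 2606, 2842 and 3471 in TPA+RGRN-305 mice, against 2119, 2349 and 2681 in TPA mice, with 9 of 10 mice above the whole TPA group (log2 fold change 0.32 ± 0.06 SE, edgeR adjusted p = 2e-05). The 2 genes summed gave 0.39 ± 0.06 (SE, edgeR adjusted p = 1.8e-07), and both were also higher with library totals alone (0.57 and 0.68). These stress-inducible HSP70 genes thus moved opposite to Hspa8 in this comparison.

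Hspb1, Hsf1 and Hspe1 had small differences whose sign depended on the scaling. Hspb1 averaged 5365 ± 648 in TPA+RGRN-305 mice and 6182 ± 539 in TPA mice (SD), and its log2 fold change was -0.20 on the TMM scale and 0.05 with library totals alone. Hsf1 gave -0.19 and 0.07, and Hspe1 gave -0.09 (edgeR adjusted p = 0.301) and 0.17. Hspb1 and Hsf1 passed the test on the TMM scale only, and Hspe1 passed it only with library totals alone.

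Hsf2 had 439, 540 and 632 normalized counts in TPA+RGRN-305 mice, against 197, 232 and 299 in TPA mice. The groups did not overlap, with a log2 fold change of 1.15 ± 0.07 (SE, edgeR adjusted p = 1e-14). Hspa12b averaged 302 ± 41.6 in TPA+RGRN-305 mice and 141 ± 23.4 in TPA mice (SD, log2 fold change 1.09). Dnajb3 and Dnajc28, both with few counts, gave 0.60 and 0.58 with overlapping groups. With the muscle covariate, Hspb6 and Hspb7 passed the test as lower with TPA+RGRN-305 than with TPA alone, with log2 fold changes of -0.20 and -0.19, against -0.11 and -0.11 without it, where neither passed the test. That covariate was scaled by library totals, and mean TMM factors were 1.06 with TPA+RGRN-305 and 0.889 with TPA. The part of this scaling in the 2 calls was not tested.

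Neutrophil markers moved with these comparisons. They were higher with TPA than with vehicle for 7 of 7 tested and lower with TPA+RGRN-305 than with TPA for 7 of 7 tested, and the part of infiltrating cells in the chaperone values was not tested.

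**Figure D4:**
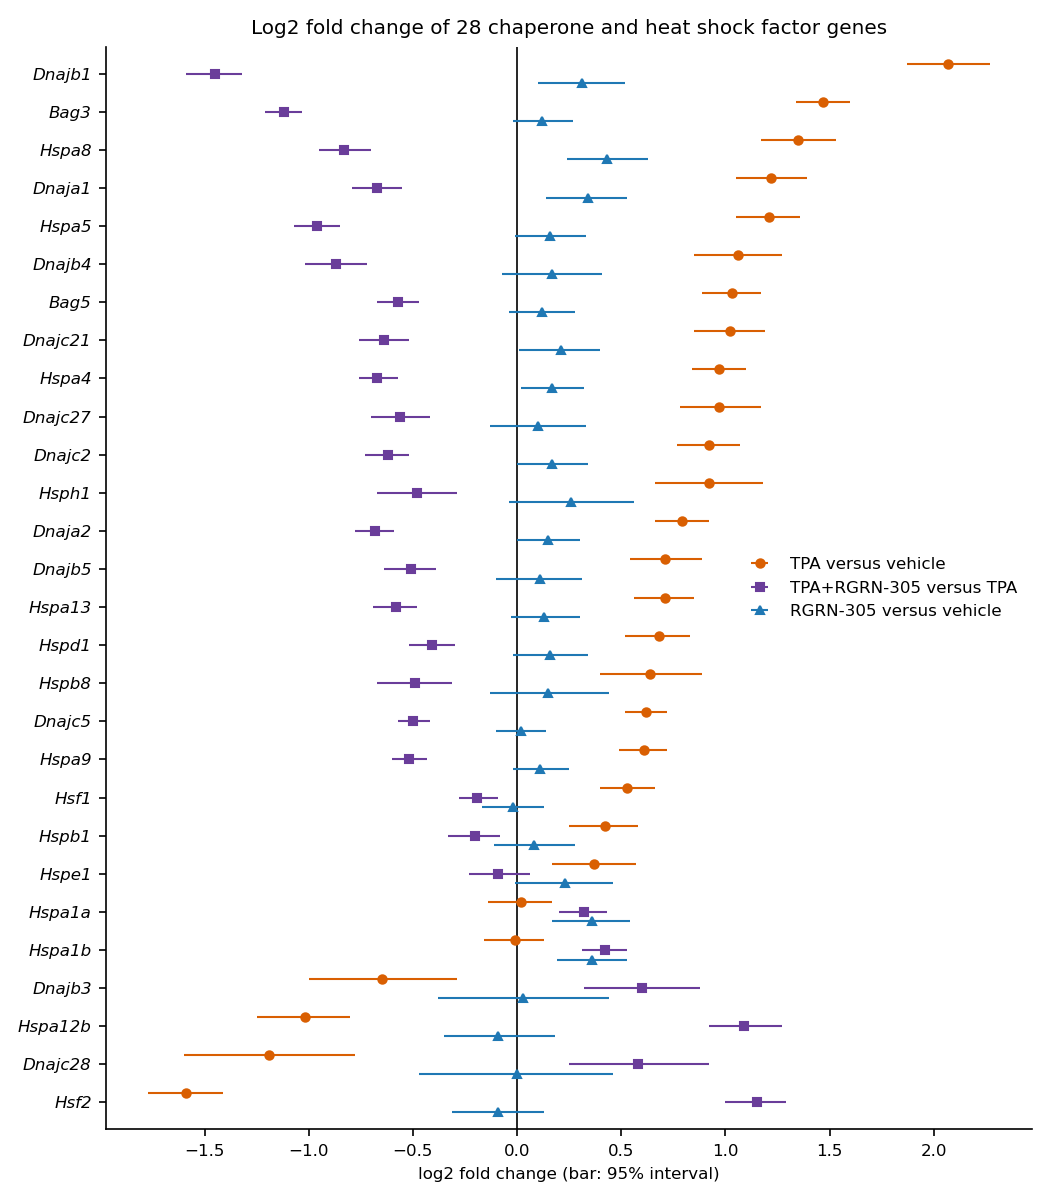
Log2 fold change (x axis) of the 28 members named by rule (y axis, ordered by TPA versus vehicle) in 3 comparisons, with bars for the 95% interval. Dnajb1 spans 2.07 for TPA versus vehicle to -1.45 for TPA+RGRN-305 versus TPA, while Hspa1a and Hspa1b lie near 0 for TPA versus vehicle and between 0.32 and 0.42 for both contrasts with RGRN-305.

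A further comparison set TPA+RGRN-305 mice against vehicle mice, and it holds the effects of both applications together. Dnajb1, Dnaja1, Hspa8, Bag5 and Hsph1 were higher than in vehicle mice, and Hsf2 was lower. Hspa8 averaged 6763 normalized counts with TPA+RGRN-305, 6373 with RGRN-305 alone and 4713 with vehicle. In the same order Dnajb1 averaged 2908, 2350 and 1892, and Hsf2 averaged 537, 687 and 731. The part of TPA in these differences was not tested. Hspa1a and Hspa1b, which did not pass the test with TPA alone, were also higher than in vehicle mice. Of 70 members, 17 were higher (24.3%) and 3 were lower, against 11.7% higher and 10.3% lower among all genes. The 3 lower members were Hsf2, Dnajc28 and Dnajc9, and their number ran from 1 to 5 when single vehicle or RGRN-305 mice were left out, with 1 left without vehicle mouse 2 and 5 without RGRN-305 mouse 1. Neutrophil markers were higher than with vehicle for 4 of 7 tested, with a median log2 fold change of 1.76, and their part in the chaperone values was not tested.

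Dnajb1 averaged 2908 ± 421 in TPA+RGRN-305 mice and 1892 ± 145 in vehicle mice (SD), a log2 fold change of 0.62 ± 0.09 (SE, edgeR adjusted p = 1.2e-05). Hspa8 averaged 6763 ± 776 in TPA+RGRN-305 mice and 4713 ± 293 in vehicle mice (SD), a log2 fold change of 0.52 ± 0.09 (SE, edgeR adjusted p = 4.6e-05). In both genes all 10 TPA+RGRN-305 mice were above every vehicle mouse. Dnaja1 gave 0.55, Bag5 0.47, Bag3 0.35 and Hsf1 0.34, again with 10 of 10 mice above the vehicle group.

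Hspa1b averaged 9271 ± 1019 in TPA+RGRN-305 mice and 6992 ± 635 in vehicle mice (SD), a log2 fold change of 0.41 ± 0.08 (SE, edgeR adjusted p = 0.0002), and Hspa1a gave 0.33 ± 0.08 (SE, edgeR adjusted p = 0.00255). All TPA+RGRN-305 mice lay above all vehicle mice for both. Hsf2 averaged 537 ± 67 in TPA+RGRN-305 mice and 731 ± 50.7 in vehicle mice (SD, log2 fold change -0.44). Hsph1, Hspd1, Hspe1 and Hspa5 had log2 fold changes of 0.44, 0.27, 0.28 and 0.25 with overlapping groups. Leaving out 1 vehicle mouse ended each of these 4 calls, with an edgeR adjusted p of 0.0986 for Hsph1 without vehicle mouse 4, and of 0.0884 for Hspd1, 0.156 for Hspe1 and 0.0801 for Hspa5 without vehicle mouse 1. Hspe1 also lost its call without vehicle mouse 2 (0.0798) or vehicle mouse 4 (0.159), and Dnajc28 without vehicle mouse 1 (0.129) or vehicle mouse 2 (0.0857).

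RGRN-305 without TPA was compared with vehicle in 4 mice each. Values of Hspa8, Hspa1b, Hspa1a, Dnaja1 and Dnajb1 lay higher in all 4 RGRN-305 mice than in any vehicle mouse, and none of these genes passed edgeR's test. Hspb3, with few counts and overlapping groups, had a log2 fold change of 0.40 (95% interval -0.06 to 0.87). Of the 70 members 0 were higher and 0 lower at an adjusted p under 0.05, against 0% higher and 0% lower among all genes, with 0.273 as the smallest edgeR adjusted p of both. At an unadjusted p under 0.05 there were 8 members (11.4%), all 8 higher, and 1810 genes (9.53%). The DESeq2 Wald test called 19 genes, among them Hspa8 (log2 fold change 0.45 ± 0.10 SE, DESeq2 adjusted p = 0.0366) and Hspa1b (0.38 ± 0.09 SE, DESeq2 adjusted p = 0.0493), but not Hspa1a (DESeq2 adjusted p = 0.115).

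Hspa8 had 7496, 6025, 5688 and 6283 normalized counts in the RGRN-305 mice, against 4349, 4818, 5043 and 4644 in the vehicle mice, a log2 fold change of 0.43 (95% interval 0.24 to 0.63, edgeR adjusted p = 0.273). Hspa1b had 9979, 9104, 7921 and 8895 in RGRN-305 mice, against 6892, 7490, 7454 and 6131 in vehicle mice, a log2 fold change of 0.36 (95% interval 0.19 to 0.53, edgeR adjusted p = 0.39). Hspa1a had 3154, 3334, 2716 and 2776 in RGRN-305 mice, against 2184, 2577, 2605 and 1990 in vehicle mice. The lowest RGRN-305 mouse was above the highest vehicle mouse in each of these 3 genes.

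Dnajb1 had 2730, 2395, 2128 and 2146 normalized counts in RGRN-305 mice, against 1795, 1852, 2107 and 1813 in vehicle mice, and Dnaja1 had 739, 583, 569 and 691, against 505, 511, 540 and 487. In Dnajb1 the groups came close, at 2128 against 2107. Such separation, with all 4 RGRN-305 mice above all 4 vehicle mice, was found in 11 members (15.7%), namely Hspa8, Hspa1a, Hspa1b, Hspa4, Hspa9, Dnaja1, Dnaja2, Dnajb1, Dnajb4, Dnajc2 and Dnajc21, against 2.37% of all genes. In the other direction it was found in 0 members, against 2.81% of all genes. The intervals of Bag3 (-0.02 to 0.27) and Hspb1 (-0.11 to 0.28) included 0. Hsf1 and Hsf2 had log2 fold changes of -0.02 and -0.09.

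**Figure D5:**
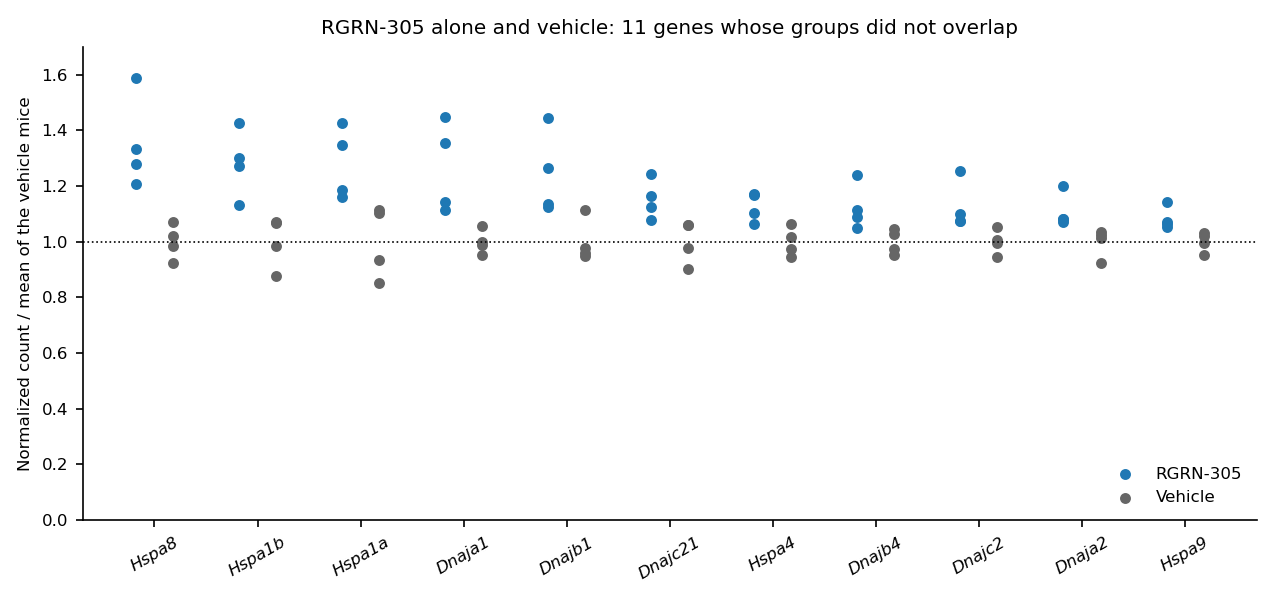
Normalized count divided by the mean of the 4 vehicle mice (y axis, from 0) for the 11 members whose 4 RGRN-305 mice all lay above the 4 vehicle mice, 1 point per mouse, with RGRN-305 left of vehicle for each gene. The gap is widest for Hspa8 (lowest RGRN-305 mouse 5688, highest vehicle mouse 5043) and the groups nearly touch for Dnajb1, Dnajb4 and Hspa4, and none passed edgeR's test over all genes.

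The interaction of TPA and RGRN-305 tests whether the effect of the inhibitor differed between TPA-treated and acetone-treated ears. It was negative for 28 members (40%) and positive for 8, against 25% and 25.8% of all genes (edgeR adjusted p under 0.05). With library totals alone it was negative for 19 members and positive for 24, with no share over all genes counted on that scale. The most negative values were those of Dnajb1 (-1.76 ± 0.13 SE, edgeR adjusted p = 2.9e-12), Hspa8 (-1.26 ± 0.12 SE), Bag3 (-1.24 ± 0.09 SE), Hspa5 (-1.12 ± 0.10 SE), Dnajb4 (-1.04) and Dnaja1 (-1.0). Hsf2 (1.23 ± 0.13 SE) and Hspa12b (1.18 ± 0.16 SE) had the largest positive values. For Hspa1a and Hspa1b the interaction did not pass the test, at -0.04 (95% interval -0.26 to 0.17) and 0.06 (95% interval -0.15 to 0.26), and with library totals alone it was 0.25 and 0.35 and did pass. The value of Hspa8 is the difference between its log2 fold changes of -0.83 in TPA-treated ears and 0.43 in acetone-treated ears, the second of which did not pass the test.

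The paired units in the promoters were set beside these values as a description. Of the 17 members with a pair, 16 were tested, and with TPA 10 were higher and 0 lower, with a median log2 fold change of 0.49 (8 and 4, median 0.20, with library totals alone). Among all genes tested 31.6% were higher and 34.4% lower, and genes outside the members were not divided by pairs. These members are not all separate cases, since Hspa1a and Hspa1b share an identical stretch and Hspd1 and Hspe1 share another. The pairs of Bag3 and Hspb8 lay after the start, at 42 and 2, and Hsph1 had pairs on either side of it. Of the 45 members with a window but no pair, 41 were tested, and 16 were higher and 14 lower, with a median of 0.07 (10 and 23, median -0.22, with library totals alone). In TPA+RGRN-305 versus TPA the members with a pair gave 2 higher and 9 lower (6 and 8 with library totals alone), and those without gave 12 higher and 17 lower (26 and 8 with library totals alone). In TPA+RGRN-305 versus vehicle those with a pair gave 8 and 0, and those without gave 6 and 3. With library totals alone these were 7 and 1, and 6 and 4. Hspa1a and Hspa1b, with one identical pair, and Dnaja4, with 2 pairs, did not pass the test with TPA on the TMM scale, whereas Dnajb1, which changed most, had no pair in its windows.

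Genes outside the rule that work with these chaperones were counted from fixed lists. Among all genes tested, 31.6% were higher and 34.4% lower with TPA than with vehicle. In TPA+RGRN-305 versus TPA, 33% of all genes were higher and 32.6% lower. Of 20 genes of the cytosolic HSP90 machinery and its partners, 12 were higher and 3 lower with TPA, and 3 were higher and 12 lower in TPA+RGRN-305 versus TPA. These were, with library totals alone, 8 and 8, and 8 and 7. Hsp90aa1, the inducible HSP90, had log2 fold changes of 1.40 for TPA versus vehicle and -1.0 for TPA+RGRN-305 versus TPA. Stip1, which joins HSP70 to HSP90, had 0.55 and -0.42, and the HSP70-binding ubiquitin ligase gene Stub1 went the other way, with -0.29 and 0.30.

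Of 14 genes of the cytosolic chaperonin TRiC and prefoldin, 10 were higher and 0 lower with TPA (median log2 fold change 0.44), and 1 was higher and 11 lower with TPA+RGRN-305 than with TPA (9 and 2, and 2 and 10, with library totals alone). Of 19 genes of folding and stress signalling in the endoplasmic reticulum, 9 were higher and 4 lower with TPA, against 4 and 10 with library totals alone, and 4 were higher and 13 lower in TPA+RGRN-305 versus TPA, against 10 and 3 with library totals alone. Hyou1, the HSP110 of that compartment, had 0.98 and -0.59 in the 2 comparisons, and Atf4, a transcription factor of the integrated stress response, had 1.93 and -1.13. The HSP90 of the endoplasmic reticulum, Hsp90b1, had 0.01 and -0.14. Of 10 genes of mitochondrial import and folding, 5 were higher and 1 lower with TPA (3 and 6 with library totals alone), among them Grpel1, the nucleotide exchange factor of mitochondrial HSP70 (0.75), and the iron-sulfur cochaperone Hscb (-1.35). Of 4 tested genes that regulate or resemble HSF1, 1 was higher and 1 lower (0 and 3 with library totals alone). In RGRN-305 versus vehicle 0 genes of these lists passed edgeR's test.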

How the data were processed

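The authors mapped stranded paired-end reads to GRCm39 and, with Subread version 2.10.3 (submitters' processing notes), kept for each gene the reads with a single, unambiguous position. The deposited values are raw counts, not normalized, and the deposited gene length was used for RPKM. Of the sample columns, 0 could not be tied to a sample. Identifiers were matched to GENCODE mouse release 39 on GRCm39 (54749 matched, 665 not, holding 0.0567% of counts). Totals of 16751780 to 24716640 counts limit precision at low counts, and the floor of 3 counts covers counting error only.

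Genes passing filterByExpr (minimum count 10, minimum total 15) were scaled by TMM and fitted over all 28 libraries with a term per group by edgeR version 4.0.16 (R version 4.3.3), using the quasi-likelihood test with Benjamini-Hochberg adjustment over 18991 genes. Standard errors were derived from the F statistic, and 95% intervals follow from them by the normal distribution. Alternatives were DESeq2 version 1.42.0 (Wald test), RLE factors, scaling by library totals, omission of the low-count filter, a replicate block, only the groups compared and leaving out single vehicle or RGRN-305 mice. Omitting the library nearly without Xist or 7 libraries with hair follicle transcripts, summing near-identical copies (6 pairs; 12 other annotated copies held at most 0.71% of the member's counts; 1 pair is not reported here) and a muscle covariate were chosen after seeing the data. The steps were tested on simulated counts.

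Members, gene lists and motifs were chosen with earlier results of these data known. Full values were given for 28 members, namely a fixed core of stress chaperones, members past the adjusted p with more than 1.5-fold change in a comparison with TPA and a mean normalized count above 50, and the 3 smallest p-values with RGRN-305 alone. Other genes were named as single examples after their values were seen.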

Additional observations from a re-analysis of the deposited data

Results flagged for a closer look

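Single mice far from the rest of their group were sought by Dixon's test in 112 combinations of a named member and a group, and chance flags about 1 in 20 groups. There were 5. The highest RGRN-305 mouse had 4379 normalized counts of Dnaja2 (mouse 1) and 965 of Dnajc2 (mouse 2). The lowest TPA mouse (mouse 4) had 3550 counts of Dnajc5, the highest vehicle mouse (mouse 2) had 739 counts of Hsf1, and the highest TPA+RGRN-305 mouse (mouse 4) had 6901 counts of Hspb1.

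The effect of RGRN-305 differed between TPA-treated and acetone-treated ears, by the interaction term of edgeR, in 22 of the 28 named members. Many of the 28 were named for their change in comparisons that share mice with this term, so a high number was built in. Over all 70 members tested, 40% were negative and 11.4% positive, against 25% and 25.8% of all genes. Below -1 on the log2 scale were Dnajb1 (-1.76), Hspa8 (-1.26), Bag3 (-1.24), Hspa5 (-1.12) and Dnajb4 (-1.04), with Dnaja1 at -1.0. Between -0.6 and -1 were Dnajc21 (-0.85), Hspa4 (-0.84), Dnaja2 (-0.83), Dnajc2 (-0.79), Hsph1 (-0.74), Hspa13 (-0.72), Bag5 (-0.69), Dnajc27 (-0.66), Hspb8 (-0.64), Hspa9 (-0.63) and Dnajb5 (-0.62). Smaller negative values were those of Hspd1 (-0.57), Dnajc5 (-0.52) and Hspb1 (-0.29). Hsf2 (1.23) and Hspa12b (1.18) were positive.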

How the results depend on the processing

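Of 2487 log2 fold changes of named members under 18 alternatives, 2432 kept their direction and their side of the threshold, 27 lost the call, 22 gained one and 6 reversed. All 6 reversals came with library totals alone, which gave -0.27 for Hspa1a with TPA versus vehicle, 0.07, 0.05 and 0.17 for Hsf1, Hspb1 and Hspe1 in TPA+RGRN-305 versus TPA, with 0.25 and 0.00 for the interaction of Hspa1a and Hspb1. TMM factors were 1.02 to 1.09 with TPA+RGRN-305, 0.868 to 0.923 with TPA, 1.05 to 1.08 with RGRN-305 and 1.08 to 1.1 with vehicle. With library totals alone, 34 members were lower with TPA than with vehicle, 37 were higher and 21 lower in TPA+RGRN-305 versus TPA, 5 were lower in TPA+RGRN-305 versus vehicle and 24 had a positive interaction. The members lower in TPA+RGRN-305 versus vehicle numbered 5 with the muscle covariate, 5 without the 7 libraries with hair follicle transcripts and 1 with no low-count filter, and 1 to 5 when single mice were left out. DESeq2 called 2 members higher with RGRN-305 alone. The interaction of Hspb1 lost its call without RGRN-305 mouse 1 or 3, or vehicle mouse 1, 2 or 4. Without the library with almost no Xist, 32 and 18 members were higher and lower with TPA, with 18 and 31 in TPA+RGRN-305 versus TPA. Without the 7 libraries with hair follicle transcripts the counts were 32 and 18, and 18 and 30.

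Same-numbered mice did not deviate together (30 pairs, r from -0.1288 to 0.2039), so that the numbers give no pairing. A fit with the replicate number as a block gave 31 higher and 17 lower members with TPA, 18 and 32 in TPA+RGRN-305 versus TPA, with 13 and 2 in TPA+RGRN-305 versus vehicle. No 2 libraries of a group agreed within sampling noise (chi-square per degree of freedom at least 4.906 over 102 pairs).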
